A study of Bos taurus with 23 samples.

Results

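Primary bovine mesenchymal cells whose library names carry the tag BUC were profiled after 50 days in culture and set against primary cells after 12 days. The 50-day BUC group was taken by the tag and the culture time and held 3 libraries, named P10_BUC, P15_BUC and P18_BUC. The 12-day group held 3 libraries, named P3_BUC_Mix, P3_WJ and P4_WJ_Male. These 6 libraries were part of a series of 23, which also held 3 libraries of 50-day primary cells tagged WJ (P10_WJ, P15_WJ and P18_WJ_F) and 14 of a line immortalized with the SV40 large T antigen. All cells came from the umbilical cord of Holstein cattle and were kept in DMEM of low glucose supplemented with serum. No group of primary cells was transfected or given another agent, and the labels give neither the animals nor their ages. What BUC, WJ, Mix, Male, F and the P numbers stand for is not given in the sources used here, so they are used as names. The tags are those of the library names, since the sample titles of all 23 libraries contain BUC, those of WJ and of the line included. Only 1 of the 3 libraries at 12 days carried the tag BUC, so a standing difference between the tags cannot be told apart from time in the comparison with all 3. The P numbers also differ between the times, 10 to 18 at 50 days and 3 to 4 at 12 days. Whether libraries of a group are separate cultures or animals is not in the labels, so p-values rest on the spread among libraries, and that spread may be technical.

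Mesenchymal stem cells of the umbilical cord are adherent stromal cells that make connective tissue matrix and can form bone, cartilage and fat cells. Primary cells of this kind divide a limited number of times in culture and then enter senescence, a lasting arrest of division in which cells stay alive and secrete inflammatory and matrix-degrading factors. As a culture is passed on, faster growing cells can also take over from others. Which of these programs a gene belongs to could not be asked here. Genes were identified by Ensembl numbers alone, and 0 of the 16094 numbers could be paired with a symbol in the reference table used, so neither the labelled cell type could be checked against its markers nor any function given. Genes are therefore described by level, direction and size of change.

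Total counts per library ran from 3743953 to 5920394 in the 50-day BUC cells and from 8954270 to 15486372 in the 12-day cells. The spread between libraries also differed, with a biological coefficient of variation of 18.7% in the 50-day BUC cells (n = 3) and 6.85% in the 12-day cells (n = 3). At an equal depth of 1840606 counts, Spearman's rho across genes was 0.961 to 0.963 among the 3 BUC libraries at 50 days and 0.97 for each pair at 12 days. Between the groups it was 0.89 to 0.896 over 9 pairs. These are descriptions across genes, which are no replicates, and carry no test. By this measure the 12-day library tagged BUC was as close to the 2 tagged WJ as these were to each other.

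The 50-day BUC libraries formed a group of their own among the 9 primary libraries. On the first principal component of log2 CPM (CPM being counts scaled to a common library total), which held 58.8% of the variance, they lay at 62.9, 64.7 and 69, while the 12-day libraries lay at -74, -73.5 and -71.4. The 50-day WJ libraries lay between these groups, at 2.76, 13.4 and 6.31. On the second component, with 26.1% of the variance, the 50-day BUC libraries (26.4 to 34.8) and the 12-day libraries (21.5 to 22.3) were near each other and the 50-day WJ libraries lay apart, at -60 to -42.9.

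**Figure D1:**
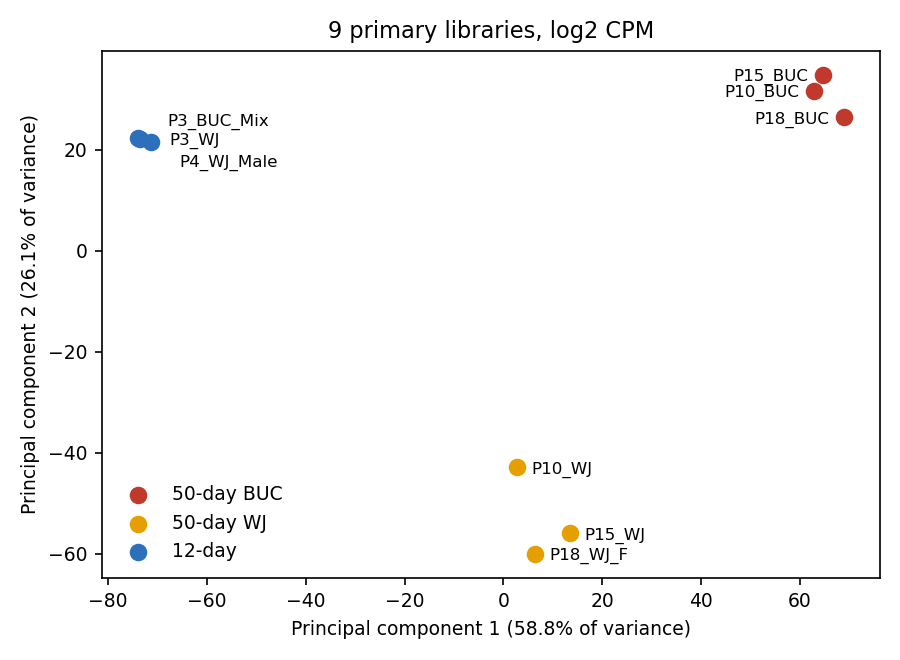
First and second principal components of log2 CPM in the 9 primary libraries, 1 point per library, coloured by group and labelled by library name. The 3 BUC libraries at 50 days lie at 62.9 to 69 on the first component and the 3 libraries at 12 days at -74 to -71.4, with the 50-day WJ libraries between them.

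Most genes measured differed between 50-day BUC and 12-day cells. Of 9820 genes tested with edgeR's quasi-likelihood test and Benjamini-Hochberg adjustment at 0.05, 6046 were called, which is 61.6%. In the 50-day BUC cells 3103 genes were higher (31.6% of genes) and 2943 were lower (30% of genes). Genes called higher had a median log2 fold change of 1.05 and those called lower one of -0.95, against 0.01 over all genes tested. In bulk RNA, fewer cells of a type and less RNA per cell cannot be told apart. No overlap between the 3 BUC libraries and the 3 at 12 days was found in 68.8% of genes, with BUC on top in 3377 and underneath in 3383. The 61.6% called comes from the same libraries, so it is no baseline for that share, and the narrow spread at 12 days enters both.

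On the TMM scale, rises outnumbered falls at each fold size. At least 2-fold changes were called for 1642 higher and 1369 lower genes, at least 4-fold for 718 and 356, at least 8-fold for 414 and 170, and at least 32-fold for 168 and 64. With libraries scaled by their totals alone, falls outnumbered rises at 2-fold (1242 higher, 2000 lower), and rises outnumbered falls at 4-fold (616 higher, 495 lower) and at 8-fold (350 higher, 192 lower). The balance over all calls was also lost on that scale, where 35.9% of called genes were higher in place of 51.3% and the median log2 fold change over all genes was -0.25. On the TMM scale that median was 0.01. All 2267 genes called higher with library totals were also called higher on the TMM scale. All 2943 genes called lower on the TMM scale were also called lower with library totals. The number of calls per direction, and directions of changes smaller than this shift of the median, are therefore relative to the TMM scale. That scale sets the bulk of genes to no change.

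**Figure D2:**
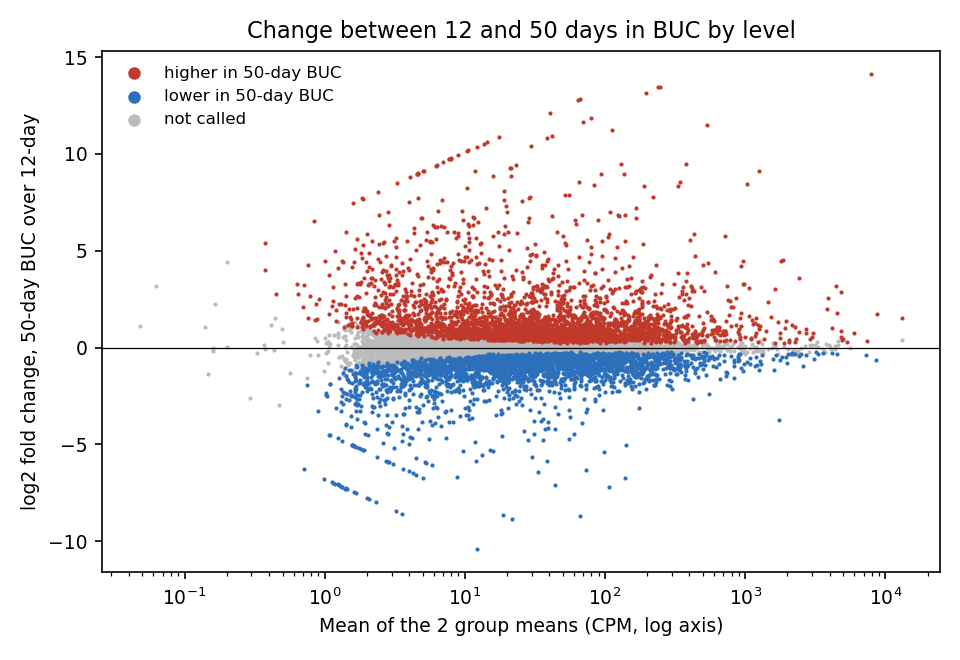
Log2 fold change of 50-day BUC over 12-day cells against mean level in CPM (log axis), 1 point per gene for 9820 genes, with 3103 called higher in red, 2943 called lower in blue and the others in grey. Rises reach further from 0 than falls, and rows of points at the edges are genes with few or no counts in one group.

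Changes were called in each of 3 classes of mean level. The mean was taken over both groups, so a gene high in 1 group alone can enter an abundant class. ENSBTAG00000017312, at 15700 CPM in 50-day BUC and 0.883 CPM in 12-day cells, did so. Large changes counted among abundant genes therefore partly follow from how the classes were set. Among the 100 genes with the highest mean over the 6 libraries, all above 1530 CPM, 40 were higher and 25 lower in 50-day BUC cells, and changes of at least 2-fold were 19 rises and 2 falls. Of the next 900 genes, 385 were higher and 276 lower, with 42 rises and 1 fall of at least 8-fold. Among the other 8820 genes 2678 were higher and 2642 lower, with 366 rises and 168 falls of at least 8-fold. The median log2 fold changes of these 3 classes were 0.13, 0.11 and 0, and with scaling by library totals they were -0.13, -0.15 and -0.27. On that scale 27 of the 100 most abundant genes were higher and 42 lower, so the direction in which abundant genes moved on balance depended on the scaling. Each library's own top 100 genes held 36.1% ± 0.954 (SD, n = 3) of counts in 50-day BUC cells and 32.8% ± 0.926 (SD, n = 3) in 12-day cells. All 3 BUC libraries exceeded all 3 of the other group (exact permutation test, two-sided, p = 0.1 as the lowest that 20 groupings allow, adjusted p = 0.2 over 2 library measures). The higher share was not particular to BUC, since P10_WJ, P15_WJ and P18_WJ_F at 50 days, outside this test, held 36.8%, 37.3% and 40.1%. Genes with a count after thinning to 1840606 counts numbered 11546 ± 212 (SD, n = 3) in 50-day BUC cells and 11715 ± 7.94 (SD, n = 3) in 12-day cells, and the groups overlapped (exact permutation test, two-sided, p = 0.4, adjusted p = 0.4).

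Genes named here were chosen among those called, with at least 10 CPM in the higher group and no overlap between the groups. The one with the largest fitted rise was one of the most abundant transcripts of the 50-day BUC cultures. ENSBTAG00000017312 had 14100, 19200 and 13900 CPM in P10_BUC, P15_BUC and P18_BUC, against 1.02, 0.7 and 0.925 CPM in P3_BUC_Mix, P3_WJ and P4_WJ_Male. It took 1.24% to 1.8% of the counts of the BUC libraries and ranked 4, 1 and 2 among their genes. Each BUC library was far above each library at 12 days, where 35 counts of this gene were found among 35838241 in all.

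Its mean was 15700 ± 3050 CPM (SD, n = 3) in 50-day BUC cells and 0.883 ± 0.166 CPM (SD, n = 3) in 12-day cells. The log2 fold change was 14.1 (standard error 0.709, edgeR adjusted p = 2.57e-08), and pooled counts gave a ratio of 14800 (exact 95% interval 10700 to 21300, for counting error only). Pooled ratios here and for the genes that follow use unscaled totals. In the 50-day WJ cells it stood at 196, 173 and 675 CPM, between the other 2 groups and overlapping neither. BUC exceeded WJ at 50 days by 5.51 on the log2 scale (edgeR adjusted p = 7.8e-06). In the immortalized line, on unscaled totals, its median was 5.54 CPM at 165 days (n = 5) and 5.55 CPM at 21 days (n = 9). The 165-day libraries were split, with SV-40_2D-1 and SV-40_2D-2 both at 322 CPM. SV-40_2D-3, SV-40_2D-4 and SV-40_2D-5 were at 5.54, 4.19 and 4.52 CPM. No library at 21 days passed 14.5 CPM.

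ENSBTAG00000020676 had the next largest fitted rise. It was at 190, 319 and 967 CPM in P10_BUC, P15_BUC and P18_BUC, and had no count in P3_BUC_Mix and P3_WJ and 1 count in P4_WJ_Male. The 3 BUC libraries were all far above those at 12 days, and their level rose with the P number. Counts summed to 7196 in 50-day BUC and 1 in 12-day cells, a pooled ratio of 18000 with a 95% interval of 3230 to 711000. Without P4_WJ_Male no count was left at 12 days and the level in 50-day BUC was at least 3410-fold higher on unscaled totals and 4110-fold on TMM-scaled totals, with 3 pooled counts as the floor. Without P18_BUC, which held most of the counts, the ratio was 8800.

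The fitted log2 fold change of ENSBTAG00000020676 was 13.47 (standard error 0.952, edgeR adjusted p = 3.26e-07), a value that depends on the prior count since 12-day counts were so few. The slope within BUC was 0.28 on the log2 scale per unit of P (edgeR adjusted p = 0.0139). In 50-day WJ cells it had 4.04, 6.76 and 6.45 CPM, which BUC exceeded by 6.5 on the log2 scale (edgeR adjusted p = 2.03e-05), and no library of the line passed 1.27 CPM.

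Among the falls, ENSBTAG00000048842 had no count in any 50-day BUC library, against 25.8, 25.4 and 22.5 CPM in P3_BUC_Mix, P3_WJ and P4_WJ_Male. The 967 counts at 12 days and 0 among 14324774 in 50-day BUC cells put its level at least 107-fold lower in BUC on TMM-scaled totals, with 3 pooled counts as the floor (edgeR adjusted p = 2.67e-07). On unscaled totals this bound was 129-fold. Without P18_BUC, the deepest of the 3, it was 63.8-fold on TMM-scaled totals. In 50-day WJ cells it was also nearly gone, with 2 counts in P10_WJ and none in the other two, and BUC and WJ did not differ past the threshold at 50 days (edgeR adjusted p = 0.118). The line still held it, at 5.98 to 11.8 CPM at 165 days (n = 5) and 12.2 to 32.7 CPM at 21 days (n = 9).

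ENSBTAG00000018146 had 1 count in P18_BUC and none in P10_BUC and P15_BUC, against 46.1, 41 and 42.8 CPM in P3_BUC_Mix, P3_WJ and P4_WJ_Male. The 12-day libraries were close together and all well above the BUC libraries. The pooled ratio of 12-day over 50-day BUC cells was 687 (exact 95% interval 123 to 27100, 1718 counts against 1), and without P18_BUC the level was at least 113-fold lower in 50-day BUC on TMM-scaled totals, with the same floor (edgeR adjusted p = 2.8e-08 for all 6 libraries). In 50-day WJ cells it had 6, 1 and 0 counts. The log2 difference of BUC from WJ at 50 days was -3.22 (edgeR adjusted p = 0.0418), from few counts in both. Unlike ENSBTAG00000048842, ENSBTAG00000018146 was also low in the line, with medians of 0.374 CPM at 165 days (n = 5) and 0.668 CPM at 21 days (n = 9). The line was not uniform at 21 days, where SV40_AM-4, SV40_AM-5, SV40_FBS-2 and SV40_FBS-4 had 4.47, 3.99, 2.99 and 4.64 CPM. No other 21-day library passed 0.668 CPM.

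**Figure D3:**
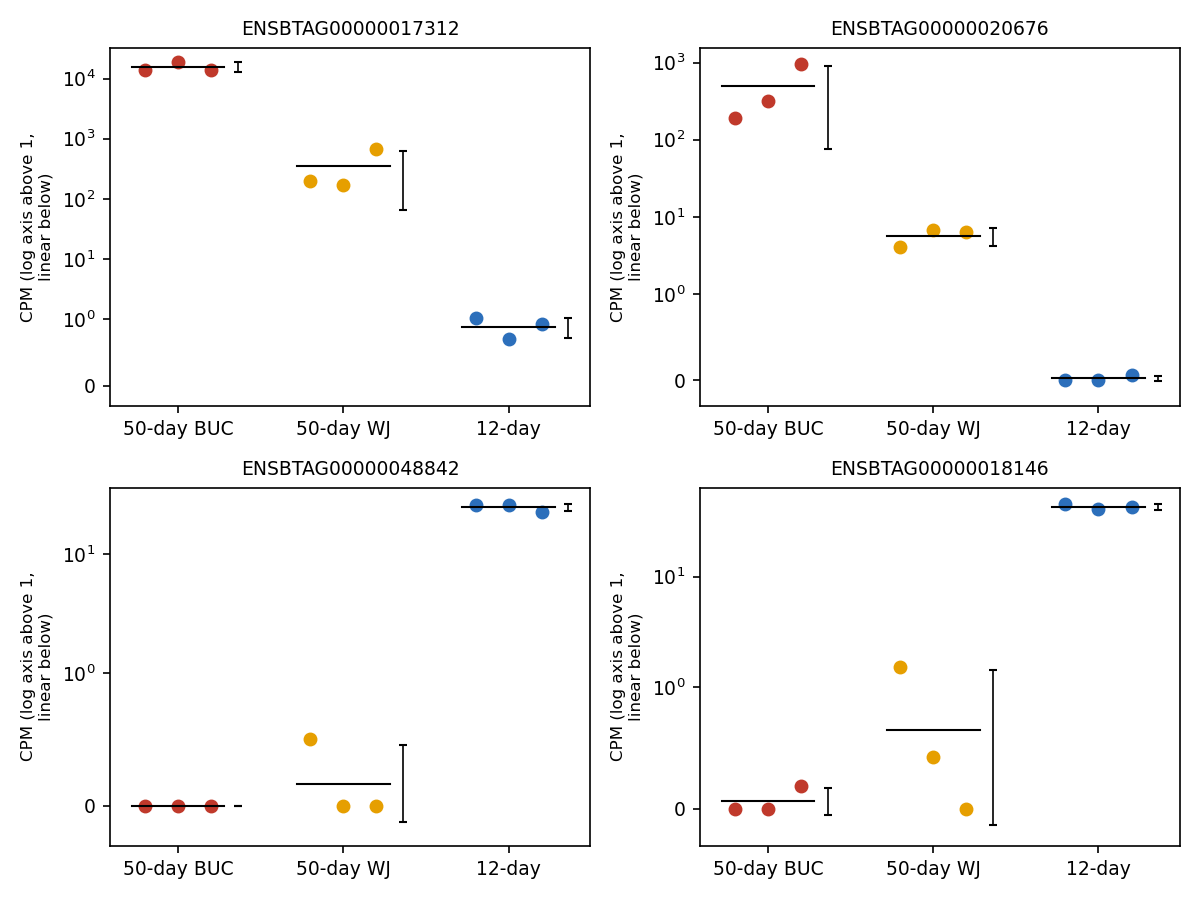
CPM of the 2 genes with the largest rise (top) and the 2 with the largest fall (bottom) in 50-day BUC, 50-day WJ and 12-day cells, 1 point per library, on an axis that is logarithmic above 1 CPM and linear below. Long lines mark group means and the bars beside them 1 SD (n = 3). The 50-day BUC and 12-day points do not overlap for any of the 4 genes, as their choice required.

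A set of genes that were nearly silent at 12 days were clearly expressed in 50-day BUC cells, and a smaller set showed the reverse. In 91 genes the mean was under 0.5 CPM at 12 days while each 50-day BUC library reached at least 5 CPM, and 22 of these had no count at 12 days, where the pooled depth allows a level of up to 0.0837 CPM. The opposite pattern, under 0.5 CPM on average in 50-day BUC and at least 5 CPM in each 12-day library, was found in 30 genes, of which 3 had no count in BUC, where the pooled depth allows up to 0.209 CPM, both on unscaled totals. Both sets were chosen by these levels, so the values that follow describe them.

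The 91 gained genes took 0.44%, 0.683% and 0.513% of the counts in P10_BUC, P15_BUC and P18_BUC. In P3_BUC_Mix, P3_WJ and P4_WJ_Male they took 0.00154%, 0.00175% and 0.00169%. Each BUC library was far above each library at 12 days, as the choice of these genes required. In the 50-day WJ libraries their share was 0.0675% to 0.0972%, between the other groups. The 30 lost genes took 0.000405% to 0.000668% of the counts in 50-day BUC, 0.00743% to 0.0111% in 50-day WJ and 0.0525% to 0.0551% in 12-day cells.

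Few of the gained genes were silent in WJ at 50 days. Of the 91, 23 reached 5 CPM in each of the 3 WJ libraries, 47 had a WJ mean between 0.5 and 5 CPM, and 15 had one under 0.5 CPM, 1 of them with no WJ count. Set against WJ at 50 days, 81 of the 91 were called higher in BUC, 2 lower and 8 not, where 17% of all genes were higher in BUC. Of the 30 lost genes 15 were called lower in BUC than in WJ and none higher, where 14.5% of all genes were lower. The BUC libraries that chose these genes also enter that test, so the counts are not independent of the choice. In the immortalized line 37 of the 91 gained and 14 of the 30 lost genes reached 5 CPM in at least 1 of its 14 libraries.

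**Figure D4:**
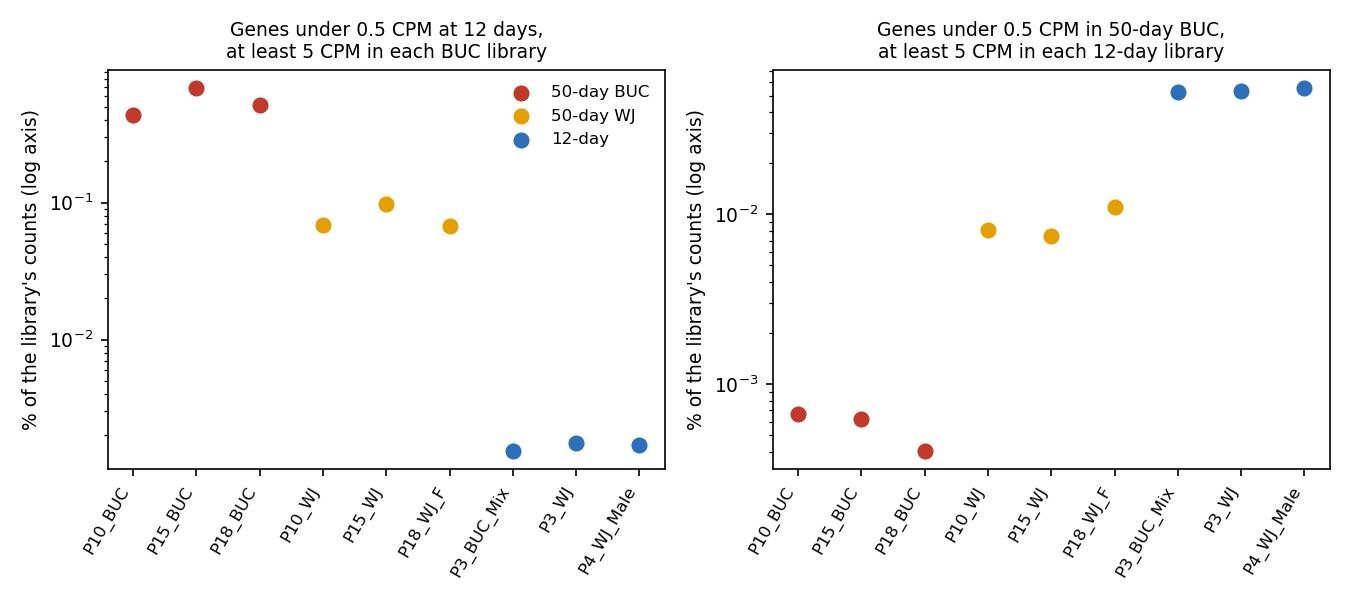
Share of each primary library's counts, in percent on a log axis, taken by the 91 genes gained in 50-day BUC (left) and the 30 genes lost there (right), 1 point per library. The 50-day WJ libraries lie between 50-day BUC and 12-day cells in both panels.

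The rise of rare transcripts was also seen without a threshold in BUC. The 5957 genes under 1 CPM on average at 12 days took 2.19%, 2.88% and 2.17% of the counts in P10_BUC, P15_BUC and P18_BUC, and 0.135% to 0.139% in the 12-day libraries. Much of this was ENSBTAG00000017312, and without it the share in the BUC libraries was 0.865% to 1.08%, against 0.134% to 0.139% at 12 days. In 50-day WJ cells the share without that gene was 0.361% to 0.411%. A choice on low 12-day values favours a rise, and with genes chosen on 2 of the 12-day libraries the left-out one gave 0.148% to 0.149%. In the other direction, the 5847 genes under 1 CPM in 50-day BUC took 0.0978% to 0.131% of counts there, 0.25% to 0.296% in 50-day WJ and 0.315% to 0.333% in 12-day cells. With genes chosen on 2 of the BUC libraries, the left-out one gave 0.166% for P10_BUC, 0.126% for P15_BUC and 0.112% for P18_BUC.

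The 3 BUC libraries at 50 days differed among themselves far less than from the 12-day cells, but more than the 12-day libraries did. At an equal depth of 3743953 counts, 2.72% to 3.59% of genes with a pair mean of at least 10 CPM differed by at least 2-fold between 2 BUC libraries, and 0.177% to 0.249% between 2 libraries at 12 days. The share was 3.59% for P10_BUC with P18_BUC, the ends of the P range, and 3.15% for P10_BUC with P15_BUC. It was 2.72% for P15_BUC with P18_BUC. With a single library at each P number, this order does not show a trend with P.

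The test of a trend with the P number in the 3 BUC libraries called few genes and had little power. Genes not called are therefore not shown to be unrelated to P. A slope on P was called for 28 of the 9820 genes (0.285%) by edgeR, 21 rising and 7 falling, and 1149 had an unadjusted p under 0.05. The median slope was 0.26 on the log2 scale per unit of P among the rising genes, which is 2.07 over the span of 8 from P10_BUC to P18_BUC, and -0.27 among the falling genes. With 1 library at each P number the fit takes its spread from all 9 primary libraries, and DESeq2 called 127 genes. Of the 3103 genes higher in 50-day BUC, 22.5% also rose in order from P10_BUC through P15_BUC to P18_BUC and 13.9% fell in order. Of the 2943 lower genes 12.6% rose and 18.9% fell in order, and over all genes these shares were 16.8% and 17.2%.

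The comparison was repeated within the tag, with P3_BUC_Mix as the sole library at 12 days. Against that library 2246 genes were higher and 2161 lower in 50-day BUC, 44.9% of genes, of which 2239 and 2155 were also called in the same direction against all 3 libraries. P3_BUC_Mix and the 3 BUC libraries at 50 days enter both comparisons, so the shared calls are not independent of each other. Lone 12-day libraries are assumed here to vary like the others. Those include the 50-day libraries, whose biological coefficient of variation was wider (18.7% in BUC, 16% in WJ) than at 12 days (6.85%). Set against the 2 WJ libraries at 12 days, P3_BUC_Mix differed in 1 gene (0.0102%), and 63 genes had an unadjusted p under 0.05. That gene stood at 13.2 CPM in P3_BUC_Mix and at 0.311 and 0.52 CPM in P3_WJ and P4_WJ_Male, and it was not called between 50-day BUC and 12-day cells. A comparison of 1 library with 2 has little power, and its spread was taken in part from the more variable 50-day libraries. It therefore does not show that the tags were alike at 12 days.

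Time within each tag was then compared between tags, as 50-day BUC over 12-day BUC against 50-day WJ over 12-day WJ, which share no library. For WJ 2111 genes were higher and 1926 lower at 50 days, 41.1% of genes. The difference of these 2 time effects was called by edgeR for 744 genes (7.58%). The effect was higher in BUC for 467 of them and lower for 277. Leaving out P3_WJ gave 318 genes and leaving out P4_WJ_Male gave 284, so this count rests on both WJ libraries at 12 days.

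Among the 467 genes the fitted time effect was positive in both tags for 223, positive in BUC and negative in WJ for 194, and negative in both for 50. These signs, like those of the 277 below, carry no call or minimum size in either tag, so effects near 0 count too. Opposite signs therefore do not show opposite changes. The median log2 time effect was 1.84 in BUC and -0.09 in WJ, and the effect was larger in size in BUC for 348. Among the 277 it was negative in BUC and positive in WJ for 136, negative in both for 103 and positive in both for 38, with medians of -1.44 in BUC and 0.38 in WJ. None of the 4 genes named above passed this test. The nearest was ENSBTAG00000017312, with a time effect of 13.88 in BUC and 8.68 in WJ on the log2 scale. For ENSBTAG00000020676, with 1 count in all at 12 days, the fitted difference was 7.98 and was not called. The test has little power for genes with few or no counts in a group. Missing its threshold therefore does not show equal time effects.

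**Figure D5:**
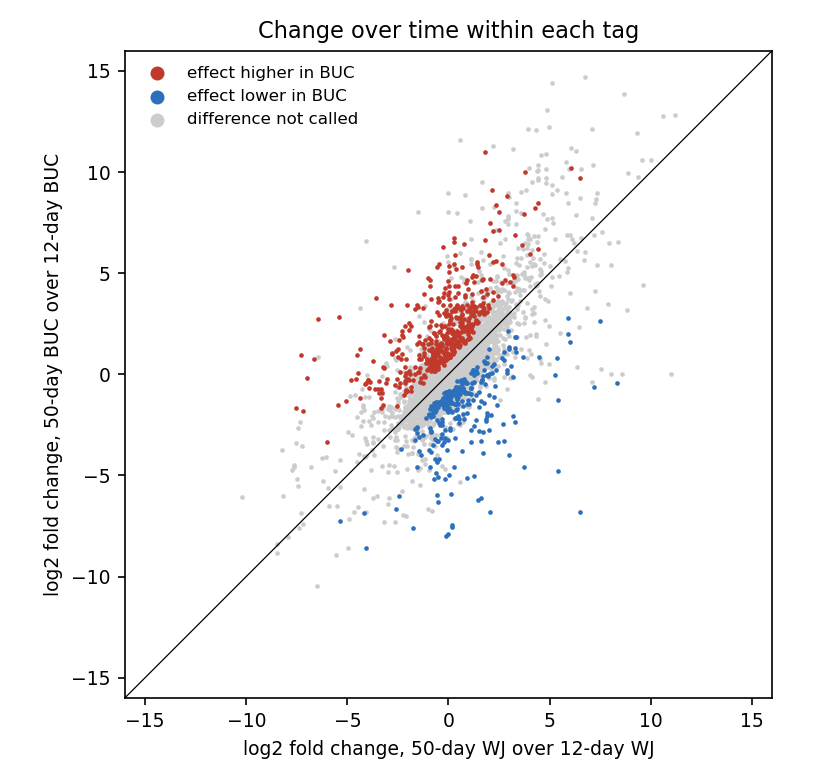
Log2 fold change of 50-day over 12-day BUC libraries (vertical) against that of 50-day over 12-day WJ libraries (horizontal) for 9820 genes, with the 467 genes whose effect was called higher in BUC in red and the 277 called lower in blue. The diagonal marks equal effects. The median WJ effect was -0.09 among the red and 0.38 among the blue points.

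BUC and WJ libraries at 50 days differed in 3098 genes (31.5%) by edgeR, 1671 higher and 1427 lower in BUC. Of the 3103 genes higher in 50-day BUC than at 12 days, 42% were also higher than in 50-day WJ, 4.16% were lower and 53.9% were not called, where 17% of all genes were higher in BUC. Of the 2943 lower genes 32.6% were also lower in BUC than in WJ, where 14.5% of all genes were. Of 414 genes that rose at least 8-fold in 50-day BUC, 319 were higher than in WJ, with a median log2 difference of 2.18 from WJ and of 4.47 from 12 days. Of 170 that fell at least 8-fold, 97 were lower than in WJ, with medians of -2.29 and -4.44. The same 3 BUC libraries enter both comparisons, so these shares are not independent of the first call. Culture, animal and tag cannot be told apart at 50 days, since the labels do not tie libraries to animals.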

How the data were processed

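Libraries of poly(A) RNA were made with bulk MARS-Seq and sequenced with single reads, per the labels' protocols. MARS-Seq counts tags near 3′ ends, so levels are not per length. The submitters' processing notes name cutadapt, STAR, HTSeq, DESeq and the build ARS-UCD1.2. As deposited by the authors, the table holds raw counts per gene, not normalized, for 16094 Ensembl numbers and 23 columns, each matched to a sample by its title. For the tools' versions, the annotation, strand, molecular identifiers and gene filters, nothing is given in the sources used here. Counts of overlapping or near-identical genes may be shared, and intervals and floors cover counting error only.

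Counts were tested with edgeR 4.0.16 in R 4.3.3 (estimateDisp, glmQLFit, glmQLFTest), with TMM scaling, filterByExpr and Benjamini-Hochberg adjustment over all 9820 genes tested. The 9 primary libraries entered 1 fit in 3 groups, plus a slope on the centred P number for that test, or 4 groups to split 12-day libraries by tag. The immortalized line was left out of the fits because it is another kind of cell. CPM uses TMM-scaled totals of the 9 libraries, and unscaled totals for the line. Pairs of libraries were compared with 0.5 CPM added. Components used log2 CPM with a prior count of 2. Standard errors come from the quasi-likelihood F statistic. No pair within a group agreed within counting noise (smallest chi-square per degree of freedom 4.2), and each library was counted once. This check cannot tell separate cultures from separate preparations of the same culture. Tests were first run on simulated data.

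The samples compared and the gene lists were chosen with earlier results of these data known. Gene lists by symbol were planned and could not be run. The named genes are the 2 in each direction with the largest fold change among those with an adjusted p under 0.05, at least 10 CPM in the higher group and no overlap, without the planned symbol condition. The sets of gained, lost and rare genes, the ordering by P number and the pair differences were set after seeing the data. Other settings tried were RLE factors, library totals, no filter, DESeq2 1.42.0, glmTreat, limma 3.58.1 voom with group weights, other sets of libraries, thinned counts, a replicate block, and leaving out each library.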

Additional observations from a re-analysis of the deposited data

Results flagged for a closer look

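The change over time differed between BUC and WJ in 744 genes by a test of the difference itself (edgeR adjusted p under 0.05), 467 with the higher and 277 with the lower effect in BUC. The 12-day side of BUC was 1 library and that of WJ 2. The part of animal or culture in this result was not tested.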

How the results depend on the processing

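Of 60 counts of genes under an alternative, 54 stayed within 1.5 times the reported count. Against a minimum fold of 1.5 (glmTreat), 1839 genes were higher and 1512 lower in 50-day BUC. Genes with a slope on P numbered 104 without the low-count filter and 127 with DESeq2, in place of 28, and the cause was not tested. Leaving out libraries, the count of genes whose time effect differed between BUC and WJ ran from 284 (without 12-day replicate 3) to 825 (without 50-day BUC replicate 1). For the 4 named genes, 68 alternative values kept the direction and an adjusted p of at most 0.000162. These genes were chosen from the same libraries for their large changes, so this outcome was close to fixed by the choice.

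Replicate numbers 1 to 3 are shared by 12-day and 50-day libraries (number 2 at 50 days is a WJ library), and the labels do not say that they pair samples. Deviations from group means correlated at -0.042, 0.03 and -0.041 for equal numbers, and not every library correlated best with its own number. With the replicate block, which left 1 residual degree of freedom, 2444 genes were higher and 2251 lower. Scaling by library totals called 2267 higher and 4045 lower, and all 23 libraries in 1 fit 2415 and 3060. Depth limits genes near 1 CPM in 50-day BUC, where the shallowest library had 3743953 counts. No fit leaving out a library was made for the slope, which needs all 3 BUC libraries, nor for the difference of time effects without P3_BUC_Mix.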
